A study of Mus musculus with 6 samples.

Results

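Imprinted growth genes were followed in differentiated mouse brown adipocytes that were wild type, lacked the coactivator PGC-1alpha, or lacked PGC-1alpha with its relative PGC-1beta knocked down. The set holds 10 genes (Dlk1, Cdkn1c, H19, Igf2, Peg3, Mest, Plagl1, Grb10, Nnat and Meg3), and its members are the probe sets whose platform annotation names only that gene. These came to 29 of 45037 probe sets and represented 9 of the 10 genes. H19 had 1 probe set, which is also named for Mir675, so no value is given for it. The genes were chosen by measured values of these arrays, the rise of Dlk1 when PGC-1beta was knocked down and the fall of Cdkn1c in knockout cells. Those changes are therefore described without a test.

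The cells were brown preadipocytes immortalized with the SV40 large T antigen and differentiated for 7 days. RNA was hybridised to 6 one-colour oligonucleotide arrays, with 2 arrays a group that the series calls biological replicates. The groups were wild-type cells, PGC-1alpha -/- cells expressing a control siRNA (knockout-control), and PGC-1alpha -/- cells expressing an siRNA specific for PGC-1beta (knockdown). Both knockout groups share the deletion and an siRNA, while the wild-type titles name no siRNA. A passage number, 4, is given for the wild-type arrays only, and a mouse of mixed background for 1 of them. The sources used here do not give how many lines or clones a group holds. Genotype, siRNA and cell line cannot be told apart in any comparison with wild type. Nor can siRNA and cell line between the 2 knockout groups, if these are separately derived lines. If a group is a single line its p-values measure only the spread between its arrays, which may be technical. A probe set of Xist, an RNA made from the inactive X chromosome, held no number on either wild-type array and stood at 849 to 1648 on the other 4, so sex cannot be told apart from genotype either.

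Array medians lay between 220.9 and 242.7, so the intensities were used as deposited. The targeted Ppargc1b (PGC-1beta) stood at 2850 and 3162 in wild type, 1862 and 2302 in knockout-control, and 534 and 224 in the knockdown arrays. The brightest probe set of Ppargc1a (PGC-1alpha) stood at 1338 and 1319 in wild type, 767 and 830 in knockout-control, and 1146 and 648 in knockdown cells. Whether that probe set lies in the deleted part of the gene was not checked, so this signal checks no label. Adipoq, the adipocyte hormone adiponectin, was bright on all arrays, at 9523 to 12129. The precision of all values that follow is limited by having 2 arrays in each group.

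Genomic imprinting silences a gene on the chromosome inherited from a given parent, so that a single parental copy is expressed. Many imprinted genes act on growth, on the exit of precursor cells from division, and on fat. Dlk1, also called Pref-1, is a membrane and secreted relative of the Notch ligands that keeps preadipocytes undifferentiated. Cdkn1c encodes p57Kip2, an inhibitor of cyclin-dependent kinases, and studies in mice have tied it to the formation of brown fat. Plagl1 and Peg3 encode zinc finger proteins, and Plagl1 (Zac1) is known to act on a network of other imprinted genes, among them Cdkn1c, Dlk1 and Igf2. Grb10 is an adaptor protein that restrains insulin and IGF-1 receptor signalling, Igf2 is a growth factor, and Meg3 is a long noncoding RNA made from the chromosome opposite to that of Dlk1.

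The upstream promoter windows of 4 genes are shown, picked by the values of their brightest probe sets given below. These are Dlk1, Plagl1 and Peg3 in knockdown cells, and Grb10 beside Cdkn1c in knockout cells. At the knockdown step Dlk1 was not tested and Peg3 was not called. The windows are the 250 bases before the RefSeq start on assembly GRCm38.p6, given 5' to 3' on the strand of the gene. RefSeq windows matched 8 of the 10 genes, all but Cdkn1c and H19. Capitals mark matches to any of the motifs searched on both strands.
Dlk1, chr12:109452573-109452822, plus strand: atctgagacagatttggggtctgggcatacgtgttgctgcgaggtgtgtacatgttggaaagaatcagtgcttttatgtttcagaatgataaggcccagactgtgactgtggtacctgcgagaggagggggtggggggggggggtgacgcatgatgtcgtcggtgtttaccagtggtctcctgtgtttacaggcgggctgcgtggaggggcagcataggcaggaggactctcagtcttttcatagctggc
Plagl1, chr10:13090582-13090831, plus strand: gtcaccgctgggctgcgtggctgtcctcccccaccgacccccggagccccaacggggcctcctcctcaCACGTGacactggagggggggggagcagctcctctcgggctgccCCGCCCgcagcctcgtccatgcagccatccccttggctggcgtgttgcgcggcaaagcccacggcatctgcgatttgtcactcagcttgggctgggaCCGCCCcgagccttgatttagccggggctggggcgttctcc
Peg3, chr7:6730420-6730669, minus strand: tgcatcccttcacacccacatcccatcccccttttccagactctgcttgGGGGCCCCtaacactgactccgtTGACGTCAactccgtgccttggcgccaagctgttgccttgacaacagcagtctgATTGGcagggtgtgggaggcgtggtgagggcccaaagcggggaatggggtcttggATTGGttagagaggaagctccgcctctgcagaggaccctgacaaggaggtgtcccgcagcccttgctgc
Grb10, chr11:12037421-12037670, minus strand: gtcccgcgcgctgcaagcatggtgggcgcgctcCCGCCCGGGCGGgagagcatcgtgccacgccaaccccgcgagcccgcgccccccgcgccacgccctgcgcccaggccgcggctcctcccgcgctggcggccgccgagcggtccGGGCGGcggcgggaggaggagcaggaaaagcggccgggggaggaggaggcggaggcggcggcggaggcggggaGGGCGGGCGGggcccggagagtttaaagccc
The Grb10 window belongs to the more upstream of its 2 RefSeq starts and has more CpG sites than the other.

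The longer motifs searched were the core of the PLAGL1 site (GGGGCCCC), the estrogen-related receptor element (TCAAGGTCA), the YY1 motif (GCCATNTT), the cyclic AMP response element (TGACGTCA) and the CTCF motif. The shorter were the E-box, which reads CACGTG, the TATA box, which reads TATAAA, the CCAAT box, and the GC box, which reads GGGCGG. Overlapping matches were counted. Over 15 windows of the 8 genes, GC boxes were in 7 (of which 2 are Mest windows that start 3 bases apart and share their GC box), CCAAT boxes in 3, cyclic AMP response elements in 2, and the PLAGL1 core, the E-box and the TATA box in 1 each. Of all 32851 RefSeq windows of that length, 32.7% held a GC box, 33.8% a CCAAT box, 1.55% a cyclic AMP response element, 0.889% the PLAGL1 core, 6.02% an E-box and 12.4% a TATA box. No member window held the estrogen-related receptor, YY1 or CTCF letters, which were in 0.387%, 3.91% and 0.0335% of all windows. The Dlk1 window had none of these letters and 8 CpG sites, against a median of 6 over all windows. The Peg3 window held the PLAGL1 core and the cyclic AMP response element, and the Plagl1 window an E-box and 2 GC boxes. The Grb10 window held 5 GC boxes and 40 CpG sites, at the 98.7th percentile of all windows. The other Grb10 window, not shown, had 8 CpG sites, at the 57th percentile, and no motif match. A match to these letters is a description of the sequence and no evidence of binding.

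Each gene was represented by its brightest probe set, and genes whose mean lay under an intensity of 163.6, the 40th percentile of all probe sets, were not tested. This left 8 of the 9 genes, all but Nnat, and 17 of the 29 probe sets. Fold changes are differences of log2(intensity + 32), a scale that understates the change of dim genes. A gene was called at an adjusted p under 0.05 in a limma model of all 6 arrays, adjusted by Benjamini-Hochberg over all genes tested, and adjusted p-values below are from that model.

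At the first step, knockout-control against wild type, 1 of the 7 tested members other than Cdkn1c was called, and it was Grb10, against 6.05% of all 13652 genes (2.55% higher and 3.50% lower). At the second step, knockdown against knockout-control, 1 of the 7 tested members other than Dlk1 was called, and it was Plagl1, against 0.835% of all 13649 genes. Between knockdown and wild type, Grb10, Plagl1 and Peg3 were called among the 6 tested members other than Dlk1 and Cdkn1c, against 10% of all 13644 genes. Groups did not overlap for 58.1% of genes at the first step, 38.5% at the second and 55% in the last comparison, in either direction. The last comparison shares its arrays with the other two.

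**Figure D1:**
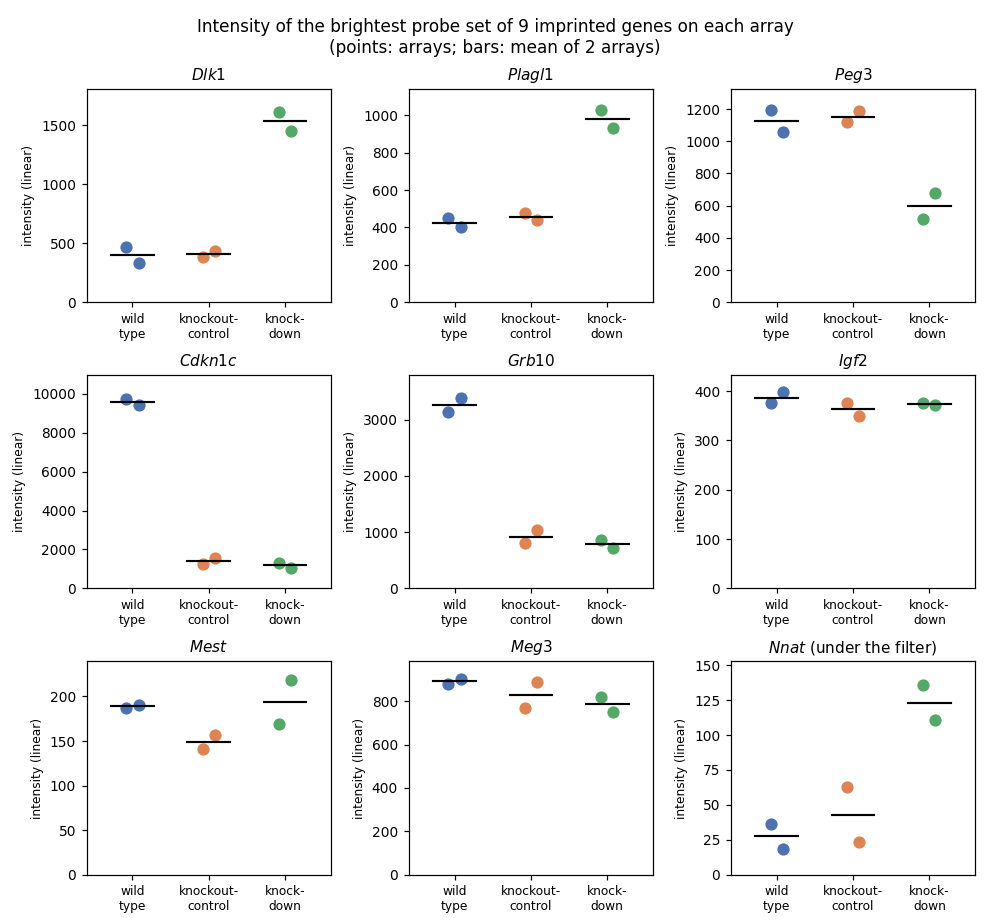
Linear intensity of the brightest probe set of each of 9 genes on the 6 arrays, with points for arrays and bars for the mean of 2 arrays. Dlk1 and Plagl1 are highest on the 2 knockdown arrays and Peg3 lowest there, while Cdkn1c and Grb10 are highest on the 2 wild-type arrays. Nnat lies under the intensity of 163.6 on every array.

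Dlk1 was low in wild type and knockout-control cells and high in knockdown cells. Its brightest probe set stood at 467 and 333 in wild type, 384 and 438 in knockout-control, and 1609 and 1452 in knockdown cells. Both knockdown arrays lay far above the other 4, whose groups overlapped. The knockdown value was 3.53-fold that of knockout-control (log2 fold change 1.82 ± 0.18 SE), the second highest ratio of 13649 genes, and this is the change that chose the genes. Between knockout-control and wild type the difference was 0.05 ± 0.18 with a 95% interval from -0.36 to 0.47 (adjusted p = 0.915), and these groups overlapped. That comparison did not choose the gene but shares its knockout-control arrays with the one that did, so its p-value is not independent of the choice.

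Dlk1 had a second, dim probe set at 117 and 75.5 in wild type, 102 and 92.7 in knockout-control, and 117 and 144 in knockdown cells. It lay under the filter, and its wild-type and knockdown arrays overlapped. With the mean of both probe sets in place of the brighter, Dlk1 read 1.07 at the knockdown step and 1.11 against wild type. The brighter set is of a type (suffix s) whose probes may match more than a single transcript.

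Dlk1 acts beside the Notch pathway, and no listed Notch gene was called at the step where Dlk1 was high. Of 20 tested genes, 0 were called by limma between knockdown and knockout-control, with 3 at an unadjusted p under 0.05, at a median of -0.16 against -0.01 for all genes. Dlk2, the closest relative of Dlk1, stood at 422 and 436 in knockout-control and 471 and 477 in knockdown cells (0.13 ± 0.14, adjusted p = 0.73). Hes1, a direct target of Notch, stood at 390 and 459 and then 445 and 336 (-0.12 ± 0.17, adjusted p = 0.816). At the first step 2.55% of all genes were called higher and 3.50% lower. Of the 20 Notch genes 1 rose and 0 fell there, at a median of -0.01 against 0.00 for all genes. The gene was Hey2, a Notch target (2.86-fold, 1.52 ± 0.28, adjusted p = 0.0173), a call that did not hold when wild-type array 2 or either knockout-control array was left out.

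Between knockdown and wild type 0 Notch genes rose and 2 fell, at a median of -0.15 against -0.03 for all genes. They were Lfng, a glycosyltransferase of Notch receptors (1.80-fold, -0.85 ± 0.20, adjusted p = 0.0346), and Nrarp, a feedback inhibitor of Notch (1.62-fold, -0.69 ± 0.16, adjusted p = 0.0326). Nrarp stood at 1974 and 2036 in wild type, 2439 and 1932 in knockout-control and 1303 and 1159 in knockdown cells. Neither call held without either wild-type array or knockdown array 2, and that of Lfng was also lost without either knockout-control array. With the mean of their probe sets Lfng and Nrarp read -0.68 and -0.30 and were not called.

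Plagl1, the zinc finger regulator, showed a rise at the same step as Dlk1. Its brightest probe set stood at 451 and 402 in wild type, 478 and 439 in knockout-control, and 1026 and 935 in knockdown cells. The knockdown arrays stood apart from the other 4, and wild type and knockout-control overlapped. It rose 2.06-fold at the knockdown step (1.05 ± 0.15 SE, adjusted p = 0.0279) and 2.21-fold against wild type (1.14 ± 0.15, adjusted p = 0.00305). The first-step difference of Plagl1 was 0.10 ± 0.15 (95% interval -0.23 to 0.43, adjusted p = 0.768). The call at the knockdown step did not hold when either wild-type array or either knockout-control array was left out. With each of the 6 arrays left out in turn, its log2 fold change lay between 0.98 and 1.11. Over all alternatives its adjusted p ranged from 0.00722 to 0.337.

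The other probe sets of Plagl1 did not show this rise. The second stood at 245 and 295 in wild type, 308 and 255 in knockout-control, and 256 and 329 in knockdown cells (0.05 ± 0.18 at the knockdown step, adjusted p = 0.945 in a limma fit over all 22719 probe sets, of which 0.625% were called). The third, under the filter, stood at 84.7 to 189 with all 3 groups overlapping. With the mean of the 3 sets the knockdown step read 0.40 (adjusted p = 0.337). The set that rose has the suffix x, given to probe sets with probes that also resemble other sequences.

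Peg3, the other zinc finger gene, was lowest in knockdown cells by its brightest probe set. It stood at 1194 and 1059 in wild type, 1120 and 1186 in knockout-control, and 517 and 678 in knockdown cells. Both knockdown arrays lay under all others. Against wild type it fell 1.85-fold (-0.89 ± 0.17 SE, adjusted p = 0.0146), a call that did not hold when wild-type array 1 or 2 was left out (adjusted p = 0.137 and 0.0765, range over all alternatives 0.00696 to 0.137). Against knockout-control the value was -0.92 ± 0.17, which missed the threshold (adjusted p = 0.0528). With an array left out it lay between -1.11 and -0.74. With all arrays kept, it passed in 3 of 10 other settings (adjusted p from 0.0212 to 0.16) and not with the replicate number as a block (0.13). At the first step the value of Peg3 was 0.03 ± 0.17 (adjusted p = 0.94).

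The 5 probe sets of Peg3 did not move alike. The second brightest stood at 365 and 390 in wild type, 252 and 377 in knockout-control, and 464 and 335 in knockdown cells, with the groups overlapping (0.33 ± 0.22 at the knockdown step, adjusted p = 0.589 over all probe sets). A dim set stood at 76.3 and 45.5, then 84.6 and 25.4, then 15.7 and 10.9, lowest in knockdown cells as the brightest set was. Another dim set stood at 47.2 and 34.9 in wild type, at 42.1 on the knockout-control array with a number, and at 4.14 and 8.14 in knockdown cells. The last held no number on the 4 wild-type and knockout-control arrays and stood at 17.3 and 9.52 in knockdown cells. These 3 sets lay under the filter.

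**Figure D2:**
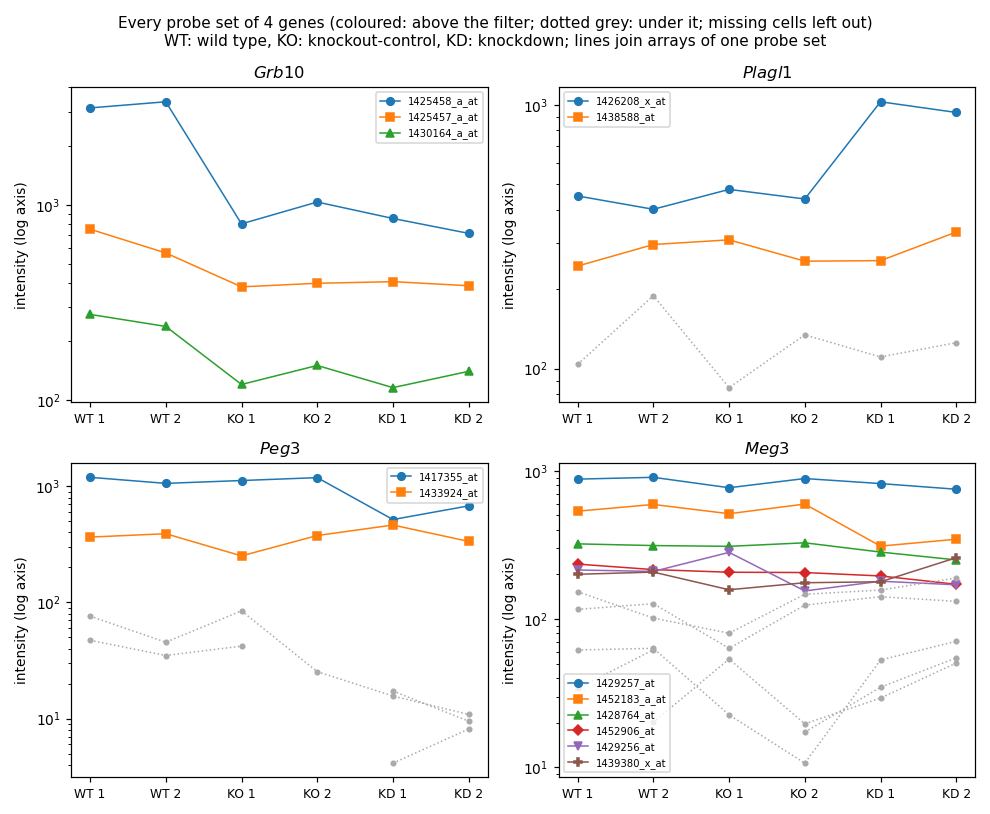
Intensity on a log axis of every probe set of Grb10, Plagl1, Peg3 and Meg3 on the 6 arrays, with lines joining the values of a probe set. All 3 Grb10 sets are lower in both knockout groups. Of the sets above the filter, 1 Plagl1 set is higher on both knockdown arrays than on the other 4. The brightest Peg3 set and 3 Meg3 sets are lower there, and of those Meg3 sets only the second brightest was called, against wild type. Groups did not overlap for 58.1% of genes at the first step, 38.5% at the knockdown step and 55% between knockdown and wild type. Separation of the knockdown arrays from the other 4 was not counted over all probe sets.

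Cdkn1c, the cyclin-dependent kinase inhibitor p57Kip2, was bright in wild type and far dimmer in both knockout groups. Its only probe set stood at 9708 and 9404 in wild type, 1246 and 1555 in knockout-control, and 1322 and 1071 in knockdown cells. The 4 knockout arrays lay close together and well under wild type. Wild type stood 6.73-fold above knockout-control (log2 fold change -2.75 ± 0.17 SE), the seventh lowest of 13652 genes, which chose the gene and is not tested. At the knockdown step the value was -0.22 ± 0.17 with a 95% interval from -0.61 to 0.17, and the groups overlapped (adjusted p = 0.627). This step did not choose the gene but shares its knockout-control arrays with the one that did, so its p-value is not independent of the choice.

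Cdkn1a, which encodes the related inhibitor p21, went the other way. It stood at 1830 and 1846 in wild type, 4754 and 5004 in knockout-control, and 4678 and 4120 in knockdown cells. It rose 2.62-fold at the first step (1.39 ± 0.14, adjusted p = 0.00124), a call that held with each array left out in turn, and was -0.15 ± 0.14 at the second (adjusted p = 0.702). With the mean of its probe sets the first-step value read 0.62 and was not called. Cdkn1b (p27), the third inhibitor of this family, stood at 2113 and 2131, then 2620 and 3343, then 3140 and 2548, and did not pass at the first step (0.47 ± 0.17, adjusted p = 0.163), nor at the second (-0.06 ± 0.17).

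Over all genes 2.55% were called higher and 3.50% lower at the first step. Of the 21 tested genes of cyclin-dependent kinase control, Cdkn1a was the only call there. That is 1 rising and 0 falling, at a median of 0.03 against 0.00 for all genes. None was called by limma at the second, with 3 at an unadjusted p under 0.05 and a median of -0.05. Between knockdown and wild type 1 rose, again Cdkn1a (2.37-fold, not called at 0.39 with the mean of its probe sets), and 0 fell. The kinases Cdk2 and Cdk4, whose cyclin complexes p57Kip2 binds, had first-step values of 0.16 ± 0.14 and -0.35 ± 0.14 (adjusted p = 0.607 and 0.192).

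Grb10, the adaptor that restrains insulin and IGF-1 receptors, followed the same order of groups as Cdkn1c. Its brightest probe set stood at 3143 and 3379 in wild type, 800 and 1036 in knockout-control, and 853 and 715 in knockdown cells. Both wild-type arrays lay far above the 4 knockout arrays, which overlapped. It fell 3.49-fold at the first step (-1.80 ± 0.17 SE, adjusted p = 0.000929) and was called with each array left out in turn. Between knockdown and knockout-control the value was -0.21 ± 0.17 (95% interval -0.61 to 0.18, adjusted p = 0.645), and against wild type knockdown cells were 4.05-fold lower (adjusted p = 0.000437).

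All 3 probe sets of Grb10 lay above the filter and were lower in knockout cells, though by unequal amounts. The second stood at 751 and 568, then 381 and 397, then 405 and 386, and fell 1.63-fold at the first step (adjusted p = 0.046 over all 22723 probe sets, of which 6.32% were called). The third stood at 275 and 239, then 120 and 151, then 116 and 140, and fell 1.73-fold (adjusted p = 0.0297). With the mean of the 3 sets the first-step change was -1.10, still called.

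Igf2, the growth factor, varied little. Its brightest probe set stood at 375 and 398 in wild type, 375 and 350 in knockout-control, and 376 and 372 in knockdown cells. All 6 values lay between 350 and 398, and the largest of its 3 differences was -0.09 ± 0.14 (adjusted p = 0.792, 95% interval -0.40 to 0.23). Its second probe set stood under the filter at 25.1 to 104.

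Other genes of insulin-like growth factor signalling differed between the knockout cells and wild type. Of 17 tested at the first step 2 rose and 2 fell, at a median of 0.02 against 0.00 for all genes. Shares over all genes were 2.55% higher and 3.50% lower. Grb14, a close relative of Grb10 and likewise an inhibitor of insulin receptor signalling, fell 5.62-fold (-2.49 ± 0.23, adjusted p = 0.000752). Its intensities were 972 and 1032 in wild type, 123 and 186 in knockout-control, and 133 and 80.9 in knockdown cells. Igf1 fell 4.08-fold (-2.03 ± 0.16, adjusted p = 0.000494), from 1121 and 1163 to 238 and 275, and stood at 384 and 296 in knockdown cells. Both falls were called with each array left out in turn.

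Igfbp3, a binding protein of IGFs, rose 1.96-fold (0.97 ± 0.17, adjusted p = 0.0138). The insulin receptor gene Insr rose 1.68-fold (0.75 ± 0.17, adjusted p = 0.0359). The call of Igfbp3 did not hold when either wild-type array or knockout-control array 1 was left out, and that of Insr when any of the 4 arrays compared was. Insr read 0.25 with the mean of its probe sets and was not called. Igf1r and Igf2r, the receptors of Igf1 and Igf2, had first-step values of 0.03 ± 0.14 and 0.29 ± 0.16 (adjusted p = 0.939 and 0.331).

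Between knockdown and knockout-control 0 of the 17 genes were called by limma, with 3 at an unadjusted p under 0.05 and a median of -0.07. Between knockdown and wild type 1 rose and 3 fell: Igfbp3 rose 3.07-fold, while Grb14, Igf1 and Irs4 fell 7.57-fold, 3.18-fold and 2.0-fold (adjusted p = 0.00119, 0.000289, 0.000935 and 0.00432). Irs4, an insulin receptor substrate, stood at 1025 and 1023 in wild type, 890 and 811 in knockout-control, and 497 and 497 in knockdown cells, and its call did not hold when wild-type array 2 was left out or with the mean of its probe sets (-0.56).

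**Figure D3:**
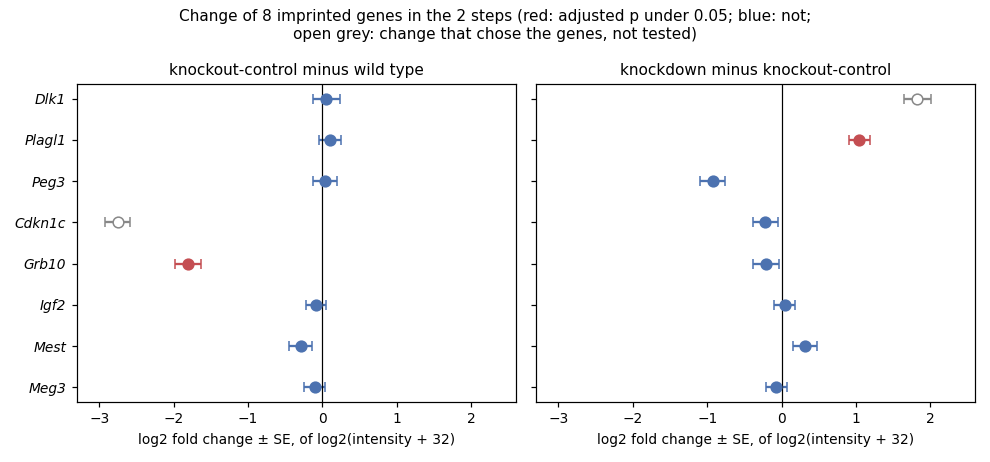
Log2 fold change with its standard error for 8 genes at the first step (left) and the knockdown step (right), on the scale of log2(intensity + 32). Beside the open points, which chose the genes, Grb10 lies at -1.80 on the left and Plagl1 at 1.05 and Peg3 at -0.92 on the right.

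Mest, which encodes an enzyme-like protein tied to fat cell size, was dim and did not pass in any comparison. It stood at 187 and 191 in wild type, 141 and 157 in knockout-control, and 169 and 218 in knockdown cells. Knockout-control lay under the other groups without overlap, which the shares of non-overlapping genes given above make common. Its values at the 2 steps were -0.29 ± 0.16 and 0.31 ± 0.16 (adjusted p = 0.337 and 0.423).

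Nnat, which encodes neuronatin, a small membrane protein of the endoplasmic reticulum, was dim on every array. Its only probe set stood at 36.4 and 18.7 in wild type, 62.8 and 23.3 in knockout-control, and 136 and 111 in knockdown cells. The knockdown arrays lay above the other 4, and the gene was under the filter and was not tested.

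Meg3, the noncoding RNA, had 11 probe sets, of which 6 lay above the filter. The brightest stood at 879 and 904 in wild type, 769 and 887 in knockout-control, and 820 and 751 in knockdown cells. Its differences did not pass at either step (-0.11 ± 0.15 and -0.07 ± 0.15, adjusted p = 0.748 and 0.876). The second brightest stood at 534 and 593, then 514 and 597, then 311 and 346, with the knockdown arrays apart from the other 4.

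That second set of Meg3 fell between wild type and knockdown (-0.73 ± 0.16, adjusted p = 0.0233 over all 22715 probe sets, of which 9.93% were called). Against knockout-control it had a value of -0.70 ± 0.16 (adjusted p = 0.0954). The other 4 sets above the filter had knockdown-step values from -0.23 to 0.32, none called. The 5 sets under the filter stood between 10.7 and 189.

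The tested chromosomal neighbours of Dlk1 were not called at either step. On chromosome 12, in the order Begain, Dlk1, Meg3, Rtl1, Rian, Mirg and Dio3, the noncoding Rian and Mirg were also tested. Rian stood at 742 and 768 in wild type, 858 and 1030 in knockout-control, and 861 and 762 in knockdown cells (-0.21 ± 0.15 at the knockdown step, adjusted p = 0.611). Mirg stood at 318 to 452, with a knockdown-step value of 0.01 ± 0.19 (adjusted p = 0.992).

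On chromosome 7, 6 imprinted neighbours of Cdkn1c were tested: Ascl2, Tspan32, Tssc4, Kcnq1ot1, Slc22a18 and Nap1l4. Their first-step values lay between -0.20 and 0.34, none called, beside -2.75 for Cdkn1c. Ascl2 was fitted without knockout-control array 1, which held no number for it. Kcnq1ot1, the noncoding RNA that silences this cluster in cis, stood at 203 and 257 in wild type, 197 and 326 in knockout-control, and 247 and 215 in knockdown cells. Its groups overlapped (0.14 ± 0.22 at the first step, adjusted p = 0.793). Phlda2, next to Slc22a18, lay under the filter at 59.4 to 99.6.

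**Figure D4:**
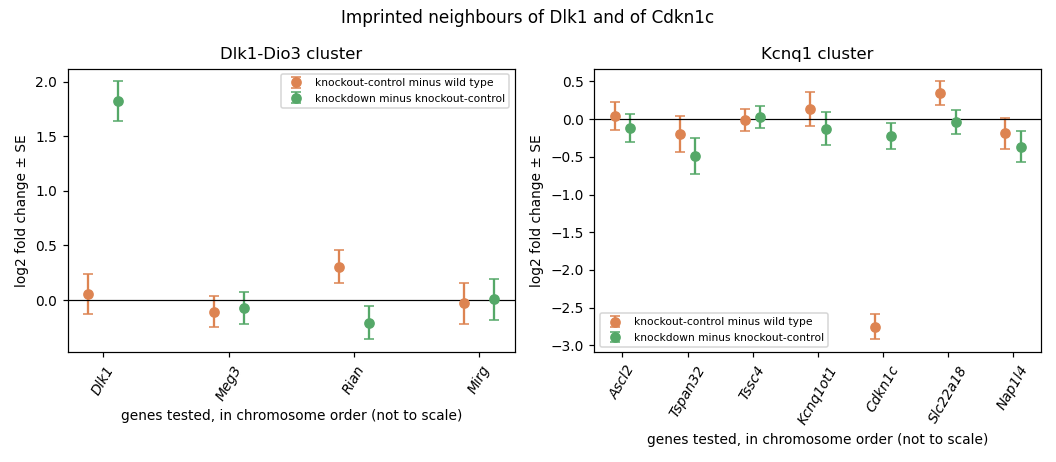
Log2 fold change with its standard error of the tested genes of the Dlk1-Dio3 cluster (left) and the Kcnq1 cluster (right), in chromosome order and not to scale. Dlk1 at the knockdown step and Cdkn1c at the first step are the changes that chose the genes, and the other points lie between -0.49 and 0.34.

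Of 8 listed neighbours of the other members 4 lay under the filter and 4 were tested. Zim1, beside Peg3, stood at 298 and 301 in knockdown cells against 331 to 380 on the other arrays (-0.22 ± 0.14 at the knockdown step, adjusted p = 0.546), and Usp29 and Zim3 lay under the filter. Ddc and Cobl, which flank Grb10, lay under it as well. Copg2, beside Mest, stood at 863 and 833, then 570 and 762, then 947 and 811. Its step values of -0.35 ± 0.17 and 0.39 ± 0.17 did not pass (adjusted p = 0.299 and 0.356) and had the signs of those of Mest. Klf14, on the same chromosome, stood at 219 to 279, with step values of -0.07 ± 0.15 and -0.10 ± 0.15 (adjusted p = 0.847 and 0.828).

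Blcap, the gene whose annotated span contains Nnat, fell 1.66-fold between wild type and knockdown (-0.73 ± 0.16, adjusted p = 0.0276). It stood at 1170 and 1072 in wild type, 888 and 1067 in knockout-control, and 725 and 608 in knockdown cells, opposite in order to Nnat. The call did not hold when either wild-type array or knockdown array 2 was left out.

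Of 57 other imprinted genes listed, 48 had a probe set of their own and 30 were tested. At the first step 0 rose and 2 fell, against 2.55% and 3.50% of all genes, at a median of -0.03 against 0.00. Those that fell were Commd1 (1.80-fold, adjusted p = 0.0353) and H13 (1.62-fold, adjusted p = 0.0236). Neither call held when any of the 4 arrays compared was left out. With the mean of their probe sets Commd1 and H13 read -0.73 and -0.06 and were not called. At the second step 0 of 30 were called by limma, with 2 at an unadjusted p under 0.05, at a median of -0.07 against -0.01.

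Between knockdown and wild type 0 rose and 2 of the 30 fell, Blcap and H13 (1.43-fold, adjusted p = 0.0494), at a median of -0.05 against -0.03. H13 kept that call with an array left out only when it was knockdown array 1, and the sign turned to 0.12 with the mean of its probe sets. Igf2r, which binds Igf2 and is on this list too, had a value of 0.56 ± 0.16 there and did not pass (adjusted p = 0.0589). Gnas, which encodes a G protein subunit, was bright at 7339 to 8728, with values of -0.15 ± 0.14 and -0.08 ± 0.14 at the 2 steps (adjusted p = 0.608 and 0.845).

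The list of factors that set or keep imprints, such as DNA methyltransferases and their partners, had 17 tested genes. Of these, 1 rose and 0 fell at the first step, against 2.55% and 3.50% of all genes, at a median of 0.00. It was Hells, a chromatin remodeller needed for DNA methylation (2.35-fold, 1.24 ± 0.28, adjusted p = 0.0372). At the second step 0 were called by limma and 0 had an unadjusted p under 0.05, at a median of -0.04. Between knockdown and wild type 1 rose, again Hells (adjusted p = 0.0408), and 0 fell, at a median of -0.14. Hells stood at 648 and 701 in wild type, 1389 and 1913 in knockout-control, and 2030 and 1091 in knockdown cells. Its first-step call did not hold when any of the 4 arrays compared was left out, and its call against wild type held with an array left out only when it was knockdown array 2. Hells read 0.50 and 0.23 in these comparisons with the mean of its probe sets and was not called.

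The genes whose profile over the 6 arrays lay nearest to that of Dlk1 were Scara5, Cxcl12, Mmp2, Maff and Chac1, among 13343 others with a value on every array. Likeness was the Euclidean distance between log2 values centred on each gene's mean, from 0.73 for Scara5 to 0.79 for Chac1, with Pearson correlations over 6 arrays of 0.94 to 0.99. Scara5, a scavenger receptor, stood at 283 and 268 in wild type, 488 and 439 in knockout-control, and 1395 and 1383 in knockdown cells. Plagl1 ranked 13 in this order at a distance of 0.92, and the next of the other members was Mest at rank 3033.

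The genes nearest to Cdkn1c were Hmgn3, Tfr2, Grb14, Sod3 and Ptp4a3, at distances from 0.27 to 0.45 and correlations of 0.99 or above. Hmgn3, a nucleosome-binding protein, stood at 1944 and 1935 in wild type, 249 and 334 in knockout-control, and 301 and 187 in knockdown cells. Grb10 ranked 13 here too, at a distance of 1.10, and Dlk1 ranked 13277. The points of these profiles share their arrays, and the order is a description.

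**Figure D5:**
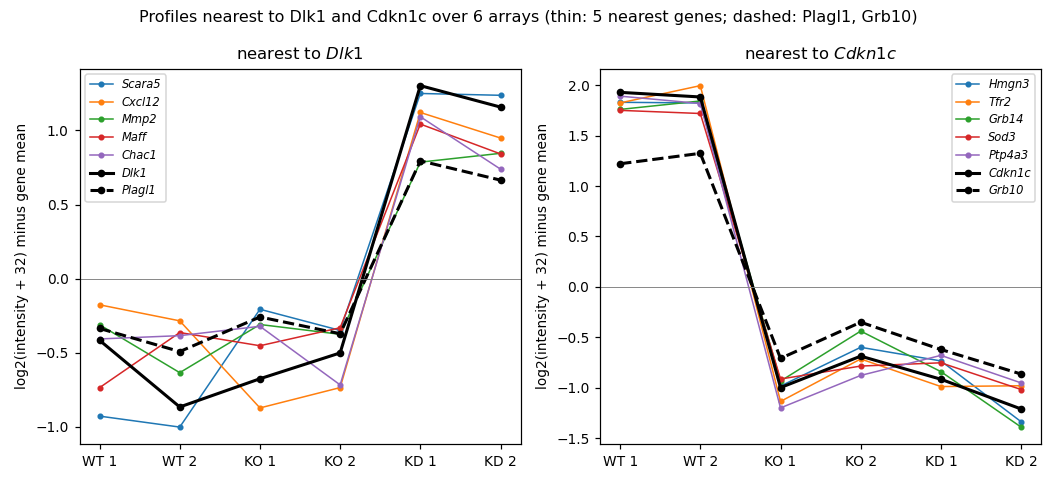
Log2(intensity + 32) minus each gene's mean on the 6 arrays for Dlk1 and Cdkn1c (thick black), their 5 nearest genes (thin) and Plagl1 or Grb10 (dashed). The Dlk1 group steps up at the knockdown arrays and the Cdkn1c group steps down from the wild-type arrays.

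Markers of cell state moved at the same steps, and their part in these results was not tested. The summed intensity of 7 brown adipocyte markers was 22030 and 21680 in wild type, 19840 and 19740 in knockout-control, and 10180 and 7658 in knockdown cells. At the knockdown step 4 of the 7 fell, Ucp1, Dio2, Cox7a1 and Cidea, and 0 rose, at a median of -1.19. Over all genes 0.564% were called lower there and 0.271% higher, at a median of -0.01. At the first step 1 of the 7, Elovl3, rose and 0 fell, against 2.55% and 3.50% of all genes. The median was -0.22, and 3 had an unadjusted p under 0.05 by limma. Cox8b and Cox7a1 read -0.80 ± 0.24 and -0.40 ± 0.16 there and were not called (adjusted p = 0.0964 and 0.204). The knockdown-step calls of Cox7a1 and Cidea did not hold when either knockout-control array was left out. Nor did they hold without the intensity filter or with the replicate number as a block. With probe sets of a gene averaged Cox7a1 was not called (-1.30, adjusted p = 0.0549), nor was Dio2 (-0.73, from -2.30). Of the 7 general adipocyte markers, the 6 with a number on every array (all but Cd36) summed to 48920 to 55760, and 0 of 7 were called by limma in any comparison, with 2, 0 and 1 at an unadjusted p under 0.05 at the first step, the knockdown step and against wild type. In such bulk RNA fewer cells of a type and less RNA per cell cannot be told apart.

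Of 10 tested preadipocyte and fibroblast markers, a class that Dlk1 also marks, 0 were called by limma at the knockdown step, with 3 at an unadjusted p under 0.05 and a median of -0.13. The 13 markers with a probe set, of which Cd34, Dpp4 and Zfp521 lay under the filter, summed to 14120 and 14100 in wild type. Their sum was 14580 and 15520 in knockout-control and 15610 and 15270 in knockdown cells. Against wild type the transcription factor gene Klf2 (3.48-fold, adjusted p = 0.00241) and Pdgfra (1.87-fold, adjusted p = 0.0111), a growth factor receptor of fat precursors, rose in knockdown cells. Klf2 (5.64-fold, adjusted p = 0.000659) and Gata3 (1.68-fold, adjusted p = 0.0235) rose at the first step. Shares of all genes called higher were 4.00% between knockdown and wild type and 2.55% at the first step. The call of Pdgfra did not hold when either wild-type array was left out, nor that of Gata3 when any of the 4 arrays compared was. Sox9, reported as a target of Dlk1 in preadipocytes, stood at 170 and 273 in knockout-control and 354 and 153 in knockdown cells (0.11 ± 0.33, adjusted p = 0.919).

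The 6 smooth muscle and pericyte markers summed to 5500 and 5020 in wild type. Their sum was 3445 and 3483 in knockout-control, and 2935 and 3043 in knockdown cells. At the first step 3 of the 4 tested, Tagln, Cspg4 and Acta2, fell, against 3.50% of all genes. Tagln kept its call with each array left out in turn, and Cspg4 and Acta2 lost theirs when any of the 4 arrays compared was left out. Acta2 turned to 0.44 with the mean of its probe sets, from -0.62, and was not called. Of 9 skeletal muscle markers 5 were tested, and 1, Mb (myoglobin), which brown fat also makes, fell at both steps. Its first-step call did not hold when either wild-type array or knockout-control array 1 was left out, and with the mean of its probe sets neither step was called (-0.54 and -1.15, against -1.03 and -2.66). The other 5 muscle markers with a number on every array summed to 1600 and 1419 in wild type, 1443 and 1510 in knockout-control, and 1687 and 1407 in knockdown cells, which overlapped. Myf5, Myh1, Myog and Tnnt3 lay under the filter. Macrophage and endothelial markers had 0 calls by limma among 4 and 2 tested genes in each comparison, with 0 at an unadjusted p under 0.05, and Cd68, Itgam, Cdh5 and Pecam1 lay under the filter.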

How the data were processed

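RNA of 6 arrays (3 groups of 2, grouped by sample title) was read from 1 deposited table of linear intensity, 1 value per probe set and array. Summarising software, background correction and scaling: not given in the sources used here. Cells with the word null (5285) or nothing (870) counted as missing. Gene names come from the platform annotation of 2016, their symbols brought up to date through Entrez identifiers in the GRCm38.p6 gene table: 34945 had 1 symbol, of which 34741 matched, 932 several and 9160 none. The last 2 kinds were left out.

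Each of 18193 genes took its probe set with the highest mean of log2(intensity + 32), and a filter at the 40th percentile over probe sets left 13658. limma 3.58.1 (R 4.3.3) fitted group means to all 6 arrays with eBayes (3 residual and 5.45 prior degrees of freedom), and the procedure was tested on simulated data. A second fit took every probe set above the filter. With 2 arrays against 2, exact permutation reaches at best p = 0.333, so it was not used.

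The members, gene lists and tests were chosen with earlier results of these data known. Named genes were the members, up to 4 called genes with the largest change per list and comparison, the targeted genes, and the 5 nearest profiles to Dlk1 and Cdkn1c. Further genes were named after their values were seen: list genes that did not pass, imprinted neighbours and Xist. Alternatives covered the pseudocount, filter, scaling, choice of probe set, eBayes settings, null cells, the replicate number as a block, and each array left out.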

Additional observations from a re-analysis of the deposited data

How the results depend on the processing

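The number of arrays, 2 a group, limits every value. Called members were counted without those whose change chose the genes. At the first step the count was 1 (Grb10) in each of 17 alternatives, from 1 to 1 with an array left out. At the knockdown step it was 1 (Plagl1), and 2 with a pseudocount of 64, a filter at the 60th percentile, or trend and robust settings, which added Peg3. It was 0 without the intensity filter, with probe sets of a gene averaged and with the replicate block, and ranged from 0 to 2 with an array left out. Against wild type it was 3, 1 with probe sets averaged, where Peg3 fell under the filter and was not tested, and 2 to 3 with an array left out. Peg3 lost its call against wild type without the filter (adjusted p = 0.0538, range 0.00696 to 0.137), and Plagl1 at the knockdown step without it (adjusted p = 0.126) and with the replicate block (0.0811; range 0.00722 to 0.337), and against wild type with the mean of its probe sets (0.35, adjusted p = 0.219, range 0.00104 to 0.219). No called value of a member changed sign in these alternatives. Replicate numbers did not pair the arrays: deviations of same-numbered arrays correlated at 0.202, -0.147 and -0.502 over genes. The last, between knockout-control and knockdown, means that arrays of unlike number deviated alike there. Knockdown array 1 correlated at 0.967 with knockout-control array 2 and at 0.963 with knockdown array 2. Empty cells numbered 334 on knockout-control array 1 and 360 on knockdown array 2, against 17 to 106 on the others. Independence of the arrays at the knockdown step was not tested. The replicate block cut the calls over all genes from 826 to 410, 114 to 22 and 1365 to 735 in the 3 comparisons. Over all genes these counts ranged from 232 to 1786, 8 to 539 and 327 to 2339 over the alternatives. After quantile normalization the knockdown step had 192 higher and 189 lower genes, against 37 and 77 (80 and 87 with median centring), and knockdown against wild type 1269 and 1032, against 546 and 819 (848 and 851 with median centring).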
